A study of Mus musculus with 14 samples.

Results

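Newly assembled, spliced transcripts that touch no Ensembl transcript listed in the same library were examined in wounded mouse epidermis. In the wounded libraries the authors listed Ensembl transcripts together with transcripts assembled from the reads. A member is an assembled transcript of at least 2 exons whose span touches no Ensembl transcript listed in the same library, on either strand. Of 108060 transcripts listed at 2 months, 11340 were assembled, 5360 of these were spliced and 194 were members. Of 109978 listed at 24 months, 13251 were assembled, 5504 were spliced and 174 were members.

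The series holds 14 RNA-seq libraries of epithelial cells sorted by flow cytometry out of the dorsal skin of C57BL/6 mice, all wild type. Wounded epidermis has 1 library at 2 months and 1 at 24 months. The other 12 libraries form 6 groups of 2: telogen (resting) bulge stem cells, interfollicular epidermis of telogen skin, and activated bulge stem cells of depilated skin, each at both ages. The labels give neither the kind of wound and its age nor the sex, and they do not say whether replicates came from separate animals. With 1 wounded library per age there is no replicate check between ages, and no p-value is given for that comparison.

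Assembly joins overlapping spliced alignments into transcript models and needs no annotation, so it lists RNAs that a gene set has not yet named. Many such RNAs are long non-coding RNAs, which are spliced and polyadenylated like messenger RNAs but carry no long open reading frame. Others are small secreted proteins, unannotated exons of a neighbouring gene, or transcribed pseudogenes. An intron is the informative part of such a model, because its ends are set by the splicing machinery, whereas the outer ends of an assembled transcript follow read coverage.

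Junctions of 7 members whose introns have a counterpart in a later annotation are shown, because the selection and the comparison between ages rest on the intron. They are examples and do not stand for all member introns. For 1810026B05Rik only the first of its 4 junctions is shown. Each run is 60 bases of spliced RNA, written as DNA from 5′ to 3′ on the transcript's strand, with 30 bases of each exon. Capitals mark the 4 bases on each side of the joined intron. The bases are from GENCODE M21 transcripts (build GRCm38), while intron positions are those of the deposited models (build mm9).
2610528A11Rik, intron chr14:37920641-37923164, minus strand: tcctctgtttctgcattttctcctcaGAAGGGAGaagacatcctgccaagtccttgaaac
2610528A11Rik, intron chr14:37915878-37920559, minus strand: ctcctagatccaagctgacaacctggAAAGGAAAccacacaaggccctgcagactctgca
1810026B05Rik, intron chr7:80700807-80702924, minus strand: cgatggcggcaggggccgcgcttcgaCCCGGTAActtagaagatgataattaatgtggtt
Lockd, intron chr6:134879279-134901323, plus strand: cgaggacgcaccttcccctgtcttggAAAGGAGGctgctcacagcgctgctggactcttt
Gm47754, intron chr13:37673175-37681022, plus strand: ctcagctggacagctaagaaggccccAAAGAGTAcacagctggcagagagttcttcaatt
A730063M14Rik, intron chr10:126507681-126507972, plus strand: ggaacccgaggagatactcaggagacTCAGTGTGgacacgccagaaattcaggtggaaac
Gm32219, intron chr12:71643160-71644880, plus strand: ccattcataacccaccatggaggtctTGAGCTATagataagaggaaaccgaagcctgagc
Gm35853, intron chr15:101233991-101234505, plus strand: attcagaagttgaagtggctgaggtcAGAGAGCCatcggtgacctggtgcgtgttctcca
The intron of the last one lies inside the type II keratin cluster and was assembled at 24 months. The others were assembled with the same introns at both ages. Over the 110 member introns found in GENCODE M21, the letters AG ended the upstream exon in 57 (51.8%), beside 55.1% of all 284220 junctions of that annotation. Only the transcript strand was read, since a junction has one direction.

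Most members were short and had few exons. At 2 months 139 of 194 (71.6%) had 2 exons, 35 had 3, 13 had 4, 5 had 5 and 2 had 6. At 24 months 116 of 174 (66.7%) had 2 exons, 35 had 3, 15 had 4 and 8 had 5. Their spliced length had a median of 600 nt at 2 months (range 140 to 6004) and 597 nt at 24 months (range 83 to 5973). The spans from start to end had medians of 3880 and 3872 nt. Assembled spliced transcripts that touch an Ensembl span were longer, with medians of 3177.5 and 3273 nt and 8 exons at both ages. Members lay on 20 chromosomes at each age, in 163 separate loci at 2 months and 142 at 24 months. Of those loci 142 and 114 held a single member. The plus strand carried 91 members at 2 months and 74 at 24 months.

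The most exons at 2 months, 6, were found in a model at chr7:46799842-46825291, of 5275 nt and 1.73 FPKM, 4.06 kb downstream of Zfp619, a zinc finger gene. FPKM is the fragment count of a transcript scaled to its length and to the depth of the library. The other model of 6 exons lay between Tnfrsf21, a death receptor gene, and Gpr110, at chr17:43287031-43294858, with 1.24 FPKM. GENCODE M21 lists the introns of both as lincRNAs, long non-coding RNAs between genes, under the names Gm37494 and CT486005.1. At 24 months the models of 5 exons included one in an interferon-inducible gene cluster, between Ifi202b and Ifi205, at chr1:175927449-175936801. It had 9.71 FPKM at 24 months, and nothing was listed there at 2 months. Some of its introns belong to the unprocessed pseudogene Gm18445 in GENCODE M21. A model of 5 exons between Prr14 and Fbrs, at chr7:134621723-134626348, had 4.62 FPKM at 24 months and all its introns belong to the protein-coding gene Fbrs in GENCODE M21. A model at chr9:77401710-77405965 beside Lrrc1, with 3.79 FPKM, matched no gene there.

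The median FPKM of the members was 2.21 at 2 months (range 0.305 to 425.9) and 2.13 at 24 months (range 0.458 to 695.5). FPKM reached 10 in 21 members at 2 months and 16 at 24 months. The 1-exon assembled transcripts outside Ensembl spans had medians of 3.46 and 2.00 FPKM, assembled spliced transcripts that touch an Ensembl span 1.51 and 1.77, and Ensembl spliced transcripts above 0 had 2.19 and 3.04. One gene, 2610528A11Rik, carried 27.9% of the summed member FPKM at 2 months and 33.8% at 24 months.

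The deposited bounds of each FPKM were of 2 kinds, which set how a level can be read. In 108 of 194 members at 2 months and 94 of 174 at 24 months both bounds were whole numbers of fragments over the full transcript length. For these the number of fragments behind a level could be given. The deposited FPKM lay above its own upper bound in 45 members at 2 months and 42 at 24 months, and every one of these had bounds of this kind. Of these, 42 and 37 were under 600 nt. In the other members no FPKM lay above its bounds. Among members with whole-fragment bounds the median lower and upper bounds were 19 and 47 fragments at 2 months, and 22.5 and 56 at 24 months. A high FPKM of a very short member can therefore rest on few fragments: the model of 83 nt at chr12:15058027-15058253 had 492.8 FPKM at 24 months with bounds of 10 and 31 fragments.

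**Figure D1:**
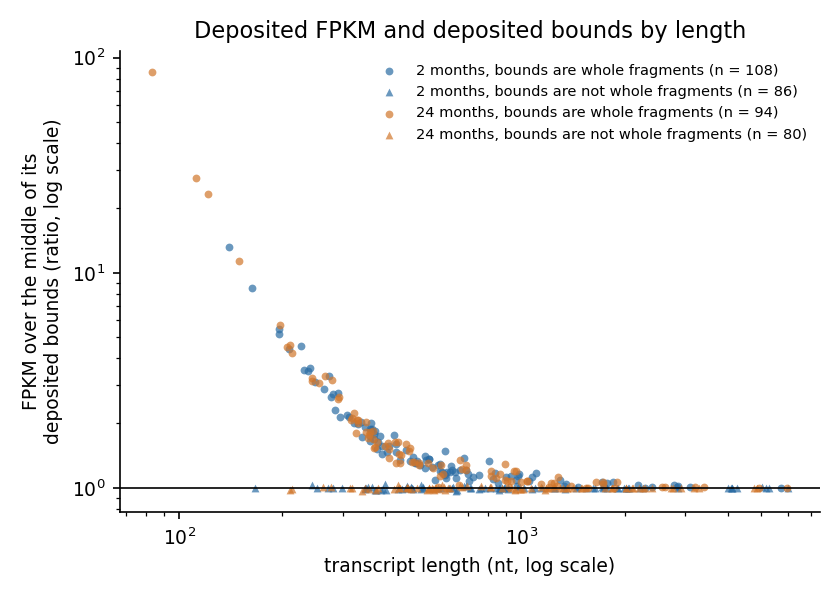
Deposited FPKM divided by the middle of its deposited bounds (vertical axis, ratio, log scale) against spliced length in nt (log scale), for every member at 2 months (n = 194, blue) and 24 months (n = 174, orange). Circles are members whose bounds are whole fragments, and they leave the line at 1 as length falls. Triangles are the other members, which stay near it.

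The same intron chain, meaning every intron with identical ends, was assembled at both ages for 44 members, which is 22.7% of the members at 2 months and 25.3% of those at 24 months. Assembled spliced transcripts that touch an Ensembl span had the identical chain in the other library in 23.5% and 22.8% of cases. Their median was 8 exons against 2 for members, so more introns had to match and the shares are not alike. A further 35 members of each library shared at least 1 intron with a member of the other. At single-intron level, 95 of 250 member introns at 2 months (38%) and 95 of 238 at 24 months (39.9%) were found at both ages.

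For the remaining members the other library gave different models of the same place or none. At 2 months 17 members overlapped a member with other introns, 8 lay over an assembled spliced transcript that touched an Ensembl span, 45 lay over an assembled transcript of 1 exon, and 45 over nothing listed. At 24 months these counts were 15, 8, 33 and 39. Members with nothing listed in the other library had few fragments: their median bounds were 8.5 and 29.5 fragments at 2 months, and 9.5 and 31 at 24 months, over the 34 and 28 with whole-fragment bounds. Recurring members had medians of 36 and 81 fragments at 2 months, and 41 and 81 at 24 months, over the 29 and 27 with such bounds. Among members with whole-fragment bounds and a lower bound of at least 100 fragments, 47.4% (9 of 19) recurred at 2 months and 47.1% (8 of 17) at 24 months. Among those with a lower bound under 20 fragments, 12.7% (7 of 55) and 11.6% (5 of 43) recurred. The 86 and 80 members with other bounds are in neither class.

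**Figure D2:**
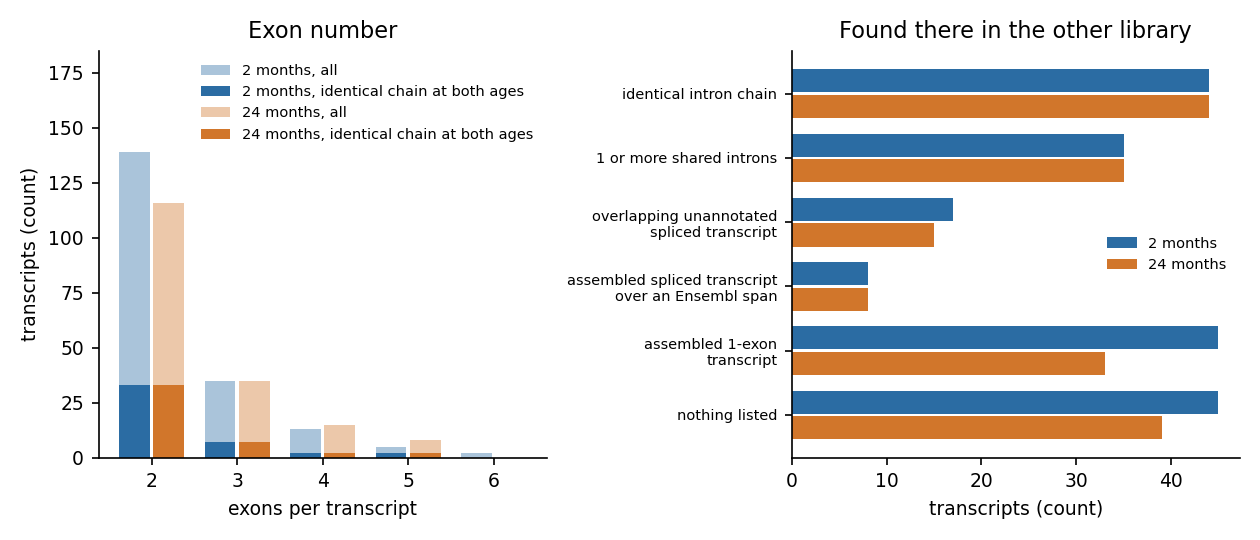
Left, number of members by exon number at 2 months (blue) and 24 months (orange), with the members whose intron chain was identical at both ages in full colour. Right, number of members by what the other library listed at the place. Of the 44 recurring members 33 had 2 exons, and nothing was listed for 45 members of the 2-month library and 39 of the 24-month library.

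The highest recurring member was 2610528A11Rik at chr14:37915329-37923336, between Cdhr1 and Ghitm. This gene encodes a small secreted peptide of barrier epithelia that binds the receptor GPR15. The model had 3 exons and 802 nt at 2 months and 893 nt at 24 months. Its FPKM was 425.9 at 2 months, with bounds of 9915 and 10442 fragments, and 695.5 at 24 months, with bounds of 20420 and 21190. The value at 24 months was 1.63-fold the value at 2 months, and the bounds did not overlap.

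After it came a 2-exon model at chr6:128097119-128122468, between Tspan9 and Tead4, 3.52 kb from Tspan9 on the opposite strand. Tspan9 encodes a tetraspanin membrane protein and Tead4 a partner of YAP. The model had 101.1 FPKM at 2 months over 598 nt, with bounds of 1511 and 1713 fragments, and 22.0 FPKM at 24 months over 1412 nt, so its length differed between the libraries as well as its level. GENCODE M21 shares exon bases with it but no intron. The nearby Tspan9 was listed at 0 at 2 months and at 13.4 FPKM at 24 months. Reads of a known gene can also be assigned to assembled transcripts that touch its span, so a listed 0 was not taken as absence.

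Among the next recurring loci, a member at chr18:50368395-50368799 had 47.5 FPKM at 2 months and 33.3 at 24 months. It overlaps a processed pseudogene in GENCODE M21. A model at chr4:155610130-155610440, 1.16 kb from Klhl17, had 32.9 and 45.3 FPKM. The model was 227 nt long at 2 months, with bounds of 44 and 85 fragments, and 280 nt at 24 months, with bounds of 140 and 205.

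At 1810026B05Rik, on the minus strand beside Chd2, the recurring 5-exon model had 14.1 FPKM at 2 months and 18.2 at 24 months. This gene is the long non-coding RNA Chaserr, known for holding down the neighbouring chromatin remodeller gene Chd2. A further model of the locus, with another start exon, had 8.35 FPKM at 2 months. Chd2 itself was listed at 1.28 FPKM at 2 months and 5.59 at 24 months.

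In the epidermal differentiation complex 2310046K23Rik, between Sprr4 and Ivl, had 20.3 FPKM at 2 months and 15.6 at 24 months. Its bounds were 348 and 442 fragments at 2 months, and 474 and 604 at 24 months. The model was 677 nt and 964 nt long. The values were within 2-fold of each other. Their deposited bounds overlapped, but at both ages the FPKM lay above its own bounds, and centred on the FPKM the bounds did not overlap. Ivl, the gene of the cornified envelope protein involucrin, was listed at 22.7 and 26.9 FPKM.

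A model between Aqp7 and Aqp3 at chr4:41008599-41011493, which matched no GENCODE M21 gene, had 12.3 FPKM at 2 months and 15.9 at 24 months. Aqp3, the water and glycerol channel of basal keratinocytes, was listed at 171.3 and 663.6 FPKM. Gm47754 at chr13:37672923-37681194, between Ly86 and Rreb1, had 20.3 FPKM at 2 months and 7.64 at 24 months. Its deposited bounds overlapped, but the 2-month FPKM lay above its own bounds, and with the bounds centred on the FPKM they did not overlap. A model at chr19:5325109-5325764, 9.98 kb from Catsper1, had 16.4 and 8.47 FPKM. The locus at chr13:39972422-39994655 near Ofcc1 held 4 members at 2 months with a sum of 10.03 FPKM, and 3 at 24 months with a sum of 13.3.

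Beyond these loci, Lockd, the long non-coding RNA downstream of the cell cycle inhibitor gene Cdkn1b, had 11.5 FPKM at 2 months and 6.501 at 24 months. Its bounds were 376 and 478 fragments at 2 months and 273 and 364 at 24 months, which did not overlap. Cdkn1b was listed at 19.6 and 19.8 FPKM. A730063M14Rik, 0.207 kb upstream of Tspan31 on the opposite strand, had 12.2 and 7.56 FPKM, with bounds of 63 and 112 fragments against 30 and 65. Those bounds overlapped.

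Over the 44 recurring members, 31 had a lower FPKM at 24 months and 13 a higher one, whereas 38.1% of the annotated transcripts were lower. The annotated set is the 12876 Ensembl transcripts of 2 or more exons with at least 0.1 FPKM in both libraries. The median log2 ratio of 24 over 2 months, with 0.1 added to each FPKM, was -0.38 for the members and 0.24 for the annotated set. At 2-fold or more, 5 members were higher at 24 months (11.4%), where 22.3% of annotated transcripts were, and 8 were lower (18.2%), where 4.47% were. Deposited bounds did not overlap between ages for 19 members, against 67.2% of annotated transcripts. With both conditions, 5 members were higher (annotated, 22%) and 6 were lower (annotated, 4.18%). With the bounds centred on the FPKM, an alternative chosen after seeing the data, 20 members had separate bounds, and 5 were 2-fold higher (annotated, 22%) and 8 were 2-fold lower (annotated, 4.22%). An annotated transcript has the same length in both libraries, whereas the outer ends of a member differ. The 1216 assembled spliced transcripts that touch an Ensembl span and had an identical chain at both ages can also differ in their ends. Of these 24.4% were 2-fold higher, 7.73% were 2-fold lower and 38.8% were lower by any size, with a median log2 ratio of 0.24. Their class was longer than the members, with medians of 3177.5 and 3273 nt against 600 and 597 nt, so it is not a like comparison. Whether differing ends moved the levels was not tested. With the 24-month values divided by 1.20, the median ratio of the annotated set, 3 members were 2-fold higher (annotated, 16.4%) and 13 were 2-fold lower (annotated, 8.38%).

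**Figure D3:**
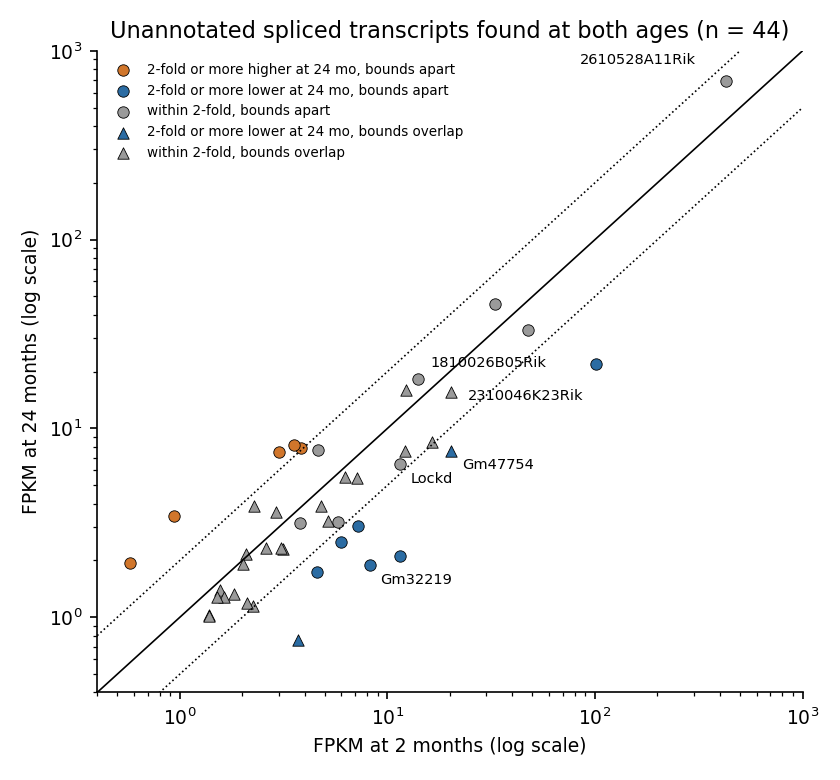
FPKM of the 44 members with an identical intron chain at both ages, at 2 months (horizontal) and 24 months (vertical), both on log scales. The solid line marks equal values and the dotted lines a 2-fold difference. Orange and blue mark members 2-fold or more higher (5) or lower (8) at 24 months, circles those whose deposited bounds do not overlap. Each point is 1 library against 1 library.

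The lowest ratios with separate deposited bounds were at 5 loci. A model at chr7:55939506-55947211, which overlaps Mrgprb11-ps, an unprocessed pseudogene of the Mrgpr receptor family, had 11.5 FPKM at 2 months and 2.10 at 24 months. It was 1635 nt long at 2 months and 690 nt at 24 months. The model near Tspan9 came next. A 3-exon model over A630089N07Rik on chromosome 16, named after its values were seen, had 3.70 FPKM at 2 months and 0.757 at 24 months (log2 ratio -2.15). Its 2-month FPKM lay above its own bounds, and its bounds were separate once centred on the FPKM. Its locus summed to 3.70 and 1.74 FPKM.

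At the other 3 loci further models lay beside the recurring chain, so the sum over all models of the locus, merged across both libraries, is given beside it. Gm32219 at chr12:71641865-71646458, between Tmx1 and Frmd6, had 8.26 FPKM at 2 months and 1.88 at 24 months. Its locus held 3 models at each age, with sums of 13.6 FPKM at 2 months and 5.82 at 24 months. The member at chr12:71751083-71751863, in the same interval, had 4.57 and 1.73 FPKM, and its locus had 4 models with a sum of 10.05 FPKM at 2 months and 2 models with a sum of 2.88 at 24 months. Both loci were lower at 24 months by the chain and by the sum.

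A 3-exon model at chr8:67179811-67190011, 6.93 kb from the sterol synthesis gene Sc4mol, had 5.98 FPKM at 2 months and 2.51 at 24 months over 2862 and 2920 nt. With the additional 2-exon model of 24 months the locus summed to 7.87 FPKM, so the direction of the sum was opposite to that of the chain.

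The highest ratios with separate deposited bounds were at chrX:160113788-160128237, with 0.940 FPKM at 2 months and 3.45 at 24 months. That 3-exon model matched no GENCODE M21 gene, and its locus summed to 2.89 FPKM over 3 models at 2 months and 4.67 over 2 at 24 months. A model at chr2:79368794-79373851, 72.0 kb from Neurod1, had 0.575 and 1.93 FPKM, over 2052 and 864 nt, while its locus summed to 1.93 FPKM at both ages. The sums at these places thus differed by less than the single chains. A model at chr14:16743438-16744294, 326.9 kb from Oxsm, had 3.56 FPKM with bounds of 35 and 75 fragments at 2 months, and 8.12 FPKM with bounds of 139 and 203 at 24 months.

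The remaining 2 of the 5 lay near Ofcc1 on chromosome 13, where neighbouring models differed in direction. The 5-exon member at chr13:39972422-39994655 had 3.001 FPKM at 2 months and 7.48 at 24 months. The 3-exon member at chr13:40008028-40018597 had 3.83 and 7.86. The 4-exon member at chr13:40020308-40029666 had 7.22 and 3.06, on the opposite strand, and its locus summed to 7.22 and 5.88.

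The highest members without an identical chain in the other library were short. At 24 months the highest was the model of 83 nt on chromosome 12, which shares exon bases with the transcribed processed pseudogene Gm36128 in GENCODE M21. Next was Gm28502, a lincRNA between Ly6c1 and Ly6c2 in the cluster of Ly6 surface proteins, at chr15:74906891-74909420. It had 91.1 FPKM over 121 nt, with bounds of 10 and 31 fragments. At 2 months an assembled spliced transcript that touched an Ensembl span was listed at the place. Ly6c1 was listed at 0 at 2 months, which was not taken as absence, and at 75.2 FPKM at 24 months. Models at chr17:22450315-22451787 (82.9 FPKM, 5 and 24 fragments) and chr14:53159079-53160266 (28.9 FPKM, 6 and 27 fragments) were also under 200 nt. The intron of the model on chromosome 14 belongs to the unprocessed pseudogene Gm36448 in GENCODE M21. A model of 213 nt beside Stk38l, at chr6:146734689-146743272, had 21.8 FPKM.

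At 2 months the highest was a model of 167 nt at chr14:52988583-52989390, with 132.0 FPKM, between the olfactory receptor genes Olfr1513 and Olfr1512, over the processed pseudogene Gm4742. A model at chr3:144448124-144450739, between Clca1 and Clca2, had 69.6 FPKM with bounds of 189 and 269 fragments, and nothing was listed there at 24 months. Clca2, of a family of chloride channel regulators, was listed at 0 at 2 months, which was not taken as absence, and at 81.9 FPKM at 24 months. The next were chr10:116174193-116186497 (34.4 FPKM, 5 and 24 fragments), chr8:71900434-71919441 over Gm10033 (19.1 FPKM, 5 and 24 fragments) and Gm32031 beside Spty2d1 (15.3 FPKM). Only the model near the Clca genes had whole-fragment bounds above 100 in that group.

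Known genes were taken from the symbols and mm9 positions in the 12 other libraries. The nearest lay at a median of 28.6 kb at 2 months and 25.5 kb at 24 months, and at most 525.4 and 740.3 kb away. It was within 5 kb for 48 members (24.7%) at 2 months and 39 (22.4%) at 24 months, and over 100 kb away for 40 and 30. Recurring members had medians of 29.98 and 29.97 kb. Of the members that did not overlap a known gene but lay within 5 kb of one, 14 at 2 months and 11 at 24 months were upstream of it on the opposite strand, the layout of a divergent promoter. Another 4 and 4 were upstream on the same strand, 5 and 4 downstream on the same strand, and 7 and 6 downstream on the opposite strand. The labels do not say that the libraries kept strand, so strands are those of the deposited models, and reads of genes that overlap on opposite strands cannot be told apart.

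**Figure D4:**
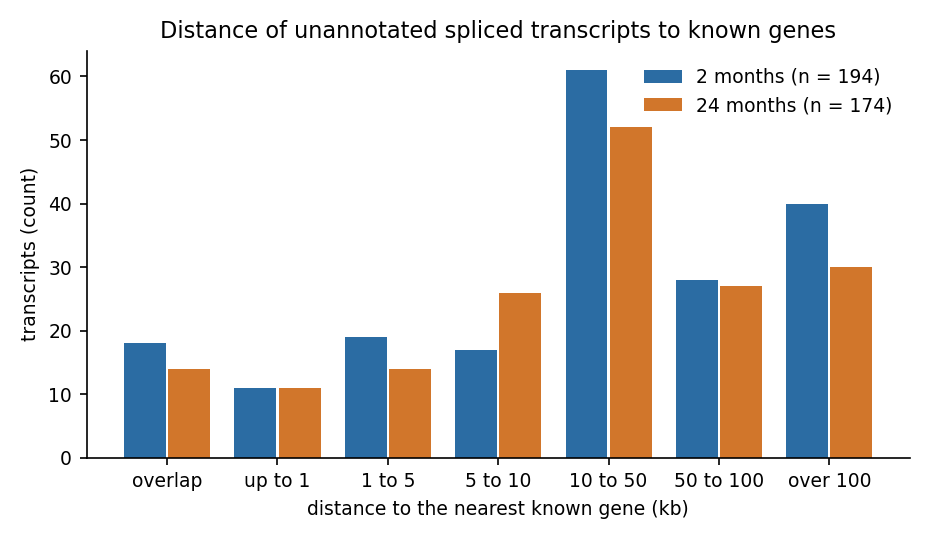
Number of members by distance in kb to the nearest known gene at 2 months (n = 194) and 24 months (n = 174). The first pair of bars are members that overlap a known gene of the 12 other libraries (18 and 14), and the last pair are members more than 100 kb from any (40 and 30).

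The 2 keratin clusters were marked out from the first to the last keratin gene. Type I keratins, the acidic partners of keratin filaments, took chr11:99094412-100131185 with 27 genes. Type II keratins, the basic partners, took chr15:101180002-101862457 with 25 genes. No member lay in the type I cluster at either age. The type II cluster held 1 member, at 24 months: Gm35853 at chr15:101233872-101236224, between Krt80 and Krt7 and 6.61 kb from Krt7, the gene of a simple epithelial keratin. It had 2 exons, 1838 nt and 1.76 FPKM. Adding 50 kb at both ends of each cluster added no member.

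These counts cover only what was listed there. No transcript of any kind was listed over 24 of the 25 type II genes at 2 months and 22 at 24 months, or over 8 and 14 of the 27 type I genes. The longest stretch without a listed transcript was 678.6 kb of the type II cluster at 2 months and 597.9 kb at 24 months, and 157.8 and 253.7 kb of the type I cluster. Stretches without a listed transcript were not analysed here. Of the type II genes Krt1, Krt5, Krt6a and Krt6b, and of the type I genes Krt14, Krt16 and Krt17, had none at either age. The stretch that holds Gm35853 had nothing listed at 2 months, so its absence there says nothing about age.

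The epidermal differentiation complex, which holds genes of the cornified envelope, had a listed transcript over 48 of 49 genes, although its longest stretch without one was 782.6 kb at 2 months and 919.95 kb at 24 months. It held 3 members at 2 months and 4 at 24 months. Besides 2310046K23Rik these were Gm35439 between Lelp1 and Sprr2a1, a model of 4 exons and 10.4 FPKM near Smcp at 2 months, and a model of 1.06 FPKM near Ivl at 24 months. Gm35439 shared introns between the ages but no full chain, with 2.72 FPKM in 1 model at 2 months, and 1.55 and 0.701 FPKM in 2 models at 24 months. The Skint cluster, whose genes act in epidermal T cell selection, held 2 members at 2 months (1.04 and 1.22 FPKM) and 1 at 24 months (1.21 FPKM), all between Skint5 and Skint11. The Ly6 cluster held Gm28502 alone. No member lay in the keratin-associated protein, Serpinb, desmosomal cadherin or kallikrein clusters.

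Members could be placed in GENCODE M21, a later annotation, by their distances to Ensembl transcripts on both sides, for 181 of 194 at 2 months and 160 of 174 at 24 months. Every intron was found there for 53 and 44 members, and some introns for 5 and 8 more. All 58 and 52 of these were on the annotated strand. This is no separate check of the match, since a shared intron has one direction and genes on the same strand were taken first. Their genes were long non-coding types in 41 members at 2 months and 30 at 24 months, protein-coding in 14 and 19, and pseudogenes in 3 and 3. Exon bases but no intron were shared for 35 and 41 members, of which 11 and 8 fell on pseudogenes. No gene lay at the place for 79 and 62 members. Recurring members had at least 1 intron in GENCODE M21 in 13 of 44 cases, and members with nothing listed in the other library in 12 of 45 at 2 months and 10 of 39 at 24 months. Members placed where no gene is annotated had medians of 2.09 and 1.88 FPKM, and members with an annotated intron 2.17 and 2.29.

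The cells were checked against marker genes in both wounded libraries, and here too a listed 0 was not taken as absence. Of 6 basal keratinocyte markers 4 were listed, with sums of 395.8 FPKM at 2 months and 1066 at 24 months. Of 5 suprabasal markers 4 were listed, with sums of 463.9 and 394.6 FPKM, mostly Krt10 (439.1 and 367.1). Ivl was at 22.7 and 26.9 FPKM, Lor at 1.93 and 0, and Flg at 0.0726 and 0.599. Fibroblast markers summed to 0.555 and 0.181 FPKM over 5 genes, and endothelial markers to 0.283 and 0.199 over 3. Immune markers summed to 9.89 and 25.3 FPKM over 7 genes, mostly Cd74, with Ptprc at 0 and 0.0362 and Itgam at 0 in both. Melanocyte markers summed to 0.404 and 0.181 FPKM over 4 genes, and muscle markers to 0 and 0.044 over 2 listed genes. Sebaceous and hair markers summed to 16.5 and 19.4 FPKM over 2 genes listed in both libraries. Nearly all of it was Scd1, a fatty acid desaturase gene, with Mc5r at 0.03 and 0. Krt35 of the same list was listed at 1.28 FPKM at 2 months only, and Krt71 at neither age. The wound-edge keratins were not listed, and Itga5, the other wound-edge marker, was at 0.908 and 8.78 FPKM. Fewer cells of a type and less RNA per cell cannot be told apart in bulk RNA.

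In the 12 other libraries, 22 annotated genes share exon bases on the same strand with members: 15 with members of 2 months, 12 with members of 24 months and 5 with both. All 22 passed the filter of at least 1 FPKM in at least 2 libraries, as did 12690 of all 22033 symbols. These values were not used by the selection. They come from another annotation and a rescaled FPKM, and were not compared with the wounded values. Tests were limma with Benjamini-Hochberg adjustment over 12690 genes, on log2(FPKM + 1), two-sided, with calls at an adjusted p under 0.05.

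Between telogen bulge stem cells and epidermis, 9 of the 22 genes passed the test, 5 higher in the bulge and 4 lower, where 20.8% of all genes tested were higher and 12.4% lower. The median log2 difference was 0.30 for the 22 and 0.14 for all genes. The share called was near that of all genes, which was 33.2%.

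The gene with the lowest adjusted p was 1190002F15Rik, the earlier symbol at the Lockd locus. Its FPKM was 7.42 and 5.07 in telogen bulge at 2 months and 4.76 and 4.85 at 24 months. In epidermis it was 31.6 and 27.1 at 2 months and 35.5 and 32.9 at 24 months. Every bulge library was below every epidermis library, and log2(FPKM + 1) differed by -2.34 (SE 0.18, adjusted p by limma 1.34e-05). The neighbouring Cdkn1b, whose product p27 halts the cell cycle, was between 50.4 and 61.8 FPKM in telogen bulge and between 22.4 and 30.1 in epidermis.

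Zfp869, a zinc finger gene, was at 16.3 FPKM or more in all 4 telogen bulge libraries and between 6.03 and 9.41 in epidermis. The groups did not overlap, and the bulge was higher by 1.06 on the log2 scale (SE 0.16, adjusted p by limma 0.000744). The Chaserr gene 1810026B05Rik was between 9.96 and 11.4 FPKM in telogen bulge and between 5.21 and 7.03 in epidermis, which is 0.72 on the log2 scale (SE 0.15, adjusted p by limma 0.00584). Higher in the bulge were also 1700012D14Rik (1.004), Slc26a6, an anion exchanger gene (0.59), and Gpr137b-ps (0.55). Lower were 2700099C18Rik (-1.78), Eppk1, the gene of the cytolinker epiplakin (-1.75), and Gm5741 (-1.51), all as log2 differences with adjusted p between 0.00126 and 0.022. The calls for Eppk1, Slc26a6 and Gpr137b-ps were lost when single libraries were left out, with adjusted p up to 0.0639, 0.0868 and 0.0818.

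The highest gene of the set, 2610528A11Rik, did not pass. Its FPKM was 0.705 and 9.68 in telogen bulge at 2 months and 1.44 and 0.751 at 24 months. In epidermis it was 59.3 and 3.42 at 2 months, and 5.21 and 119.2 at 24 months. In activated bulge it was 35.0 and 1.12 at 2 months, and 23.5 and 9.10 at 24 months. Replicates of the same group differed by more than 10-fold in 4 of the 6 groups, and the groups overlapped. Bulge minus epidermis was -2.83 on the log2 scale (SE 1.26, adjusted p by limma 0.118).

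Between activated and telogen bulge stem cells, 6 of the 22 genes passed, 4 higher on activation and 2 lower, where 13.5% and 16.1% of all genes were, and 29.6% either way. 1190002F15Rik was at 32.4 and 24.3 FPKM in activated bulge at 2 months and at 34.9 and 26.9 at 24 months, above every telogen library (2.23 on the log2 scale, SE 0.18, adjusted p by limma 5.79e-05). Also higher were 2700099C18Rik (2.30), Tnrc18 (0.96) and AA474331 (0.75). Zfp869 (-0.88) and Gpr137b-ps (-0.59) were lower. The count was 3 without the telogen bulge library 24 months, replicate 1 (all genes, 13.4%), and also 3 without 2 months, replicate 2 (all genes, 14.1%). The calls for Tnrc18, AA474331 and Gpr137b-ps were lost in both cases, and those for AA474331 and Gpr137b-ps also without some other single libraries (adjusted p by limma up to 0.123 and 0.0817).

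The activated libraries also differ in sex-linked RNA. Xist, expressed from the inactive X of females, was between 15.8 and 140.8 FPKM in the 4 activated libraries and at most 0.28 in the other 8. The Y-linked Ddx3y was at most 0.0397 FPKM in the activated libraries and between 6.02 and 23.2 in the others. Sex and activation cannot be told apart in this comparison.

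**Figure D5:**
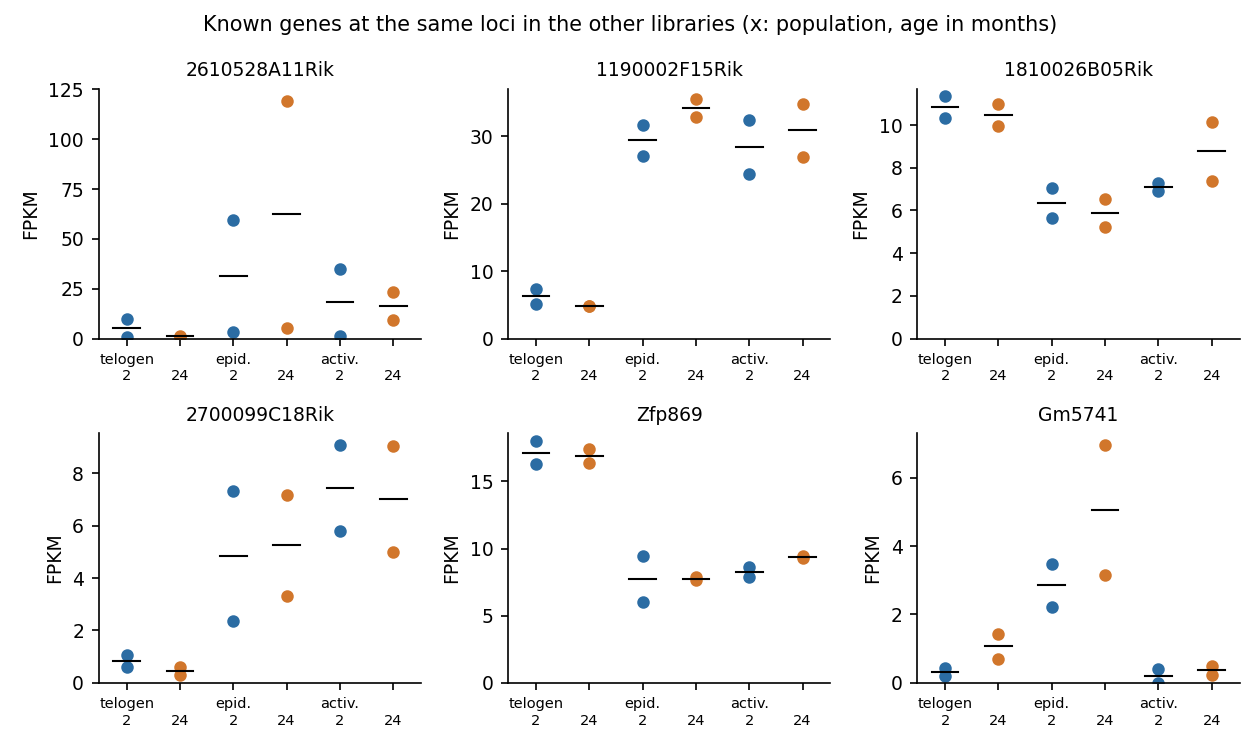
FPKM of 6 annotated genes that share exon bases with members, in telogen bulge, epidermis (epid.) and activated bulge (activ.) at 2 months (blue) and 24 months (orange). Points are the 2 libraries of a group and lines their mean. 1190002F15Rik is lowest and Zfp869 highest in the 4 telogen bulge libraries, and 2610528A11Rik varies between replicates.

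Between 24 and 2 months, averaged over the 3 populations, 0 of the 22 genes passed the limma test (every adjusted p 0.99994). At an unadjusted p under 0.05 there was 1, where 288 of all 12690 genes (2.27%) were. It was Gm5741, higher by 0.47 on the log2 scale at 24 months (SE 0.20). At the adjusted threshold 0.0158% of all genes passed, 0.00788% higher and 0.00788% lower. 1190002F15Rik differed by 0.01 on the log2 scale (SE 0.15).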

How the data were processed

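Reads were aligned with TopHat and transcripts quantified with Cufflinks on mm9, per the submitters' processing notes, with no versions. The authors deposited FPKM with confidence bounds per transcript, in text attributes. Values of the other 12 libraries lie 12533 to 18522 times above the usual scale, so all were divided by 16679.9, which changes no ratio, and summed by symbol. The members and gene lists were chosen with earlier results of these data known. Wounded depth was 39589631 and 43117592 fragments, estimated from the step of the bounds (tolerance 0.03 fragment). Depth of the other 12 libraries was not derived. p-values measure the spread between libraries, which may be technical. Named were the 10 highest recurring loci, the 5 largest ratios each way with separate bounds and at least 1 FPKM, and keratin cluster members. Named per library were the 5 members with most exons and the 5 highest without an identical chain in the other library. Overlapped genes were also named. Lockd, A730063M14Rik, the A630089N07Rik model and the third model near Ofcc1 were named after their values were seen, as was the match to GENCODE M21. limma 3.58.1 in R 4.3.3 used one mean per group, eBayes with trend, and was tested on simulated data. Alternatives covered strand, exon number, FPKM minimum, pseudocount, scaling, normalization, filter, block and single libraries.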

Additional observations from a re-analysis of the deposited data

How the results depend on the processing

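Limits first: each age is 1 wounded library, the bounds hold no spread between libraries, and outer transcript ends differ between libraries. Which errors within a library the bounds cover was not tested. With overlap counted on the same strand only, 267 and 254 transcripts qualified at 2 and 24 months, and with the 12 libraries' genes counted as known 176 and 160. Requiring 3 or more exons left 55 and 58. Recurrence, 44 by identical chain, was 79 by at least 1 identical intron in either library, 96 of the 2-month and 94 of the 24-month members by any overlap, and 11 with 3 or more exons (added after seeing the data). For the 2-fold counts (5 higher, 8 lower), a pseudocount of 1 gave 3 higher (annotated, 14.2%) and 7 lower (annotated, 2.58%). Division by the median annotated ratio gave 3 higher (annotated, 16.4%) and 13 lower (annotated, 8.38%). Sums over each library's own loci gave 3 higher and 5 lower of 43 loci. No annotated share was computed for sums over loci. Added after seeing the data were sums over loci merged across both libraries (3 higher, 6 lower) and lengths of at least 500 nt. The length limit kept 24 members, with 4 higher (16.7%, annotated 22.9%) and 5 lower (20.8%, annotated 4.15%). The cause was not tested.

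Leaving out each of the 12 libraries gave 6 to 11 of 22 genes for telogen bulge against epidermis (23 to 37.2% of all genes), 3 to 7 for activated against telogen bulge (13.4 to 35.2%), and 0 for age. Quantile normalization gave 7, 7 and 0 (all genes 36.4, 37.9 and 0.0158%). It lost the calls for Gpr137b-ps and Slc26a6 between telogen bulge and epidermis, and for AA474331 between activated and telogen bulge. The call for Gpr137b-ps between activated and telogen bulge was kept. Deviations of same-numbered libraries correlated at 0.16 to 0.60 in all 6 pairs of epidermis and activated groups, and at -0.33 to 0.056 in the 9 pairs with a telogen group. As both comparisons of populations include telogen groups, the numbers were not taken as pairs. With the replicate block 9, 9 and 0 genes passed (all genes 38.2, 38 and 0.0158%), beside 9, 6 and 0 without it (33.2, 29.6 and 0.0158%).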
